A study of Mus musculus with 12 samples.

Results

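Ezh2, Eed, Suz12, Kdm6b, Dnmt1, Dnmt3a, Tet2 and Hdac7 are chromatin regulators that take part in osteoclast differentiation. They were chosen by a list of names and make up 8 of the 24421 genes listed for every library. RNA of bone marrow-derived macrophages (BMMs), the precursors that become osteoclasts, was sequenced in 12 libraries, in 6 conditions with 2 replicates each. The background of the mice is given by the study as C57BL/6. The study asked what the microRNA miR-182 does during this differentiation, and the comparisons below ask how the RNA of the 8 regulators changed with RANKL, with deletion of miR-182 and with its overexpression.

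The loss of function experiment had WT mice of genotype Mir182+/+LysMcre(+) and Mir182ΔM/ΔM mice of genotype Mir182flox/floxLysMcre(+), which lack miR-182 in myeloid cells. The gain of function experiment had Control mice of genotype LysMcre(+) and Mir182mTg mice of genotype LSL-Mir182LysMcre(+). All 4 genotypes carried the Cre recombinase that is expressed from the lysozyme M locus, so deletion or overexpression was limited to cells that had used this locus. All cells were grown with M-CSF, the growth factor of macrophages, for 3 days. WT and Mir182ΔM/ΔM cells were then either left unstimulated (basal) or given RANKL, the cytokine that drives osteoclast formation, for 5 days, while Control and Mir182mTg cells were measured only in the basal state.

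Chromatin regulators add or remove chemical marks on DNA and histones, and these marks help to decide which genes a macrophage keeps silent and which it can switch on. Ezh2, Eed and Suz12 are the core of Polycomb repressive complex 2 (PRC2), in which Ezh2 is the enzyme that methylates histone H3 at lysine 27, Eed reads the mark and Suz12 holds the complex together. Kdm6b (also called Jmjd3) removes that mark, Dnmt3a places new methyl groups on DNA, Dnmt1 copies them to the new strand when DNA is replicated, Tet2 oxidises them, and Hdac7 is a class IIa histone deacetylase known as a corepressor. In osteoclast precursors, Ezh2, Kdm6b and Dnmt3a are known as promoters of differentiation and Hdac7 as a brake on it.

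Each library had 24951280 to 33050619 reads on genes, so that 3 reads, taken as the lower limit of interpretation, were worth 0.0908 to 0.120 CPM (the read count per gene, scaled so that all libraries have the same total). All 96 values of the 8 regulators lay above this limit, and the lowest rested on 170 reads. Markers of macrophages were high in all libraries, with a summed level of 8415 to 13825 CPM, whereas those of B cells, T and NK cells, erythroid cells and mast cells summed to at most 3.67 CPM in any library. Dendritic cell markers summed to at most 4.10 CPM, and stromal and osteoblast markers to 9.18 to 31.7 CPM in basal and 29.7 to 57.4 CPM in RANKL libraries, and their part was not tested. The neutrophil markers summed to 90.9 to 117 CPM in basal loss of function and Mir182mTg libraries, to 49.5 to 50.7 CPM in Control libraries and to 7.19 to 22.2 CPM after RANKL, and their part in the results below was not tested. Mir182 itself reached 2.39 and 4.40 CPM in Mir182mTg libraries. It was listed at 0 in all other libraries but replicate 1 of Mir182ΔM/ΔM basal cells, which had 1 read (0.0370 CPM), below the limit of interpretation, so the deletion could not be checked from these data.

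In Lyz2 and Ifi202b the WT RANKL libraries differed widely from WT basal and Mir182ΔM/ΔM libraries. Lyz2, the gene of lysozyme M at whose locus Cre was placed, had 4117 and 4288 CPM in WT RANKL cells against 22.5 to 44.0 CPM in the other 6 loss of function libraries. Ifi202b, an interferon-inducible gene, had 1.12 and 0.972 CPM there against 82.1 to 152 CPM in those 6. Lyz2 and Ifi202b were looked up as a check on the origin of the mice, which was not tested further. In both genes the WT RANKL libraries resembled Control and Mir182mTg libraries, in which Lyz2 ranged from 5783 to 7062 CPM and Ifi202b reached at most 0.0908 CPM. For this reason the response of WT cells to RANKL is also given against Control basal cells. For Mir182ΔM/ΔM against WT after RANKL there was no other WT RANKL library, and there the deletion and whatever set these libraries apart cannot be told apart.

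A microRNA lowers the output of transcripts that pair with its seed, so the sequences of miR-182 and of the best matches in the 8 transcripts are shown first. The mature miR-182-5p lies on the minus strand at chr6:30165962-30165986 (RefSeq, GRCm38.p6), and its seed, bases 2 to 8, is printed in capitals.
miR-182-5p: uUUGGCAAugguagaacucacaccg
The letters that pair with the seed are TTGCCAA, and they were searched on the transcript strand of all annotated 3′ UTRs (GENCODE vM21, GRCm38). None of the 8 regulators held them, whereas 11.5% of 19529 genes with a 3′ UTR did. The shorter TGCCAA, which pairs with bases 2 to 7, was found in Dnmt3a and Hdac7 and in 31.8% of all genes. The 3 matches are printed with 10 flanking bases on each side and the letters that pair with bases 2 to 7 in capitals.
Dnmt3a, first match, plus strand, chr12:3908739-3908744: tagcttcaccTGCCAAaaaggggctc
Dnmt3a, second match, plus strand, chr12:3911087-3911092: tttgggactgTGCCAAtctggctatt
Hdac7, minus strand, chr15:97793059-97793064: aacccaacggTGCCAAaccttcatct
The first Dnmt3a match, at position 992 of the 3′ UTR, and the Hdac7 match, at position 633, are followed by an A, as in 12.9% of all genes. The longest annotated 3′ UTR of Dnmt3a has 6696 bases, more than in 98.4% of genes, and that of Hdac7 has 1033 bases, beside a median of 998. These matches are a description of the sequence and not known sites.

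Per length, Dnmt1 was the most abundant of the 8 regulators in all conditions except WT RANKL. In WT basal cells the mean RPKM (the CPM divided by the gene's length in kilobases) was 43.2 for Dnmt1, 23.3 for Dnmt3a, 20.0 for Suz12, 18.5 for Eed and 16.3 for Ezh2, followed at a distance by 5.88 for Tet2, 4.87 for Hdac7 and 1.18 for Kdm6b. After RANKL, Dnmt3a led the order in WT cells with 95.8 RPKM against 53.4 for Dnmt1, and Kdm6b, with 4.68, had moved above Hdac7, with 2.22. In Mir182ΔM/ΔM cells after RANKL Dnmt1 stayed first with 61.0 RPKM and Dnmt3a followed with 40.5. Ezh2, Suz12 and Eed were close to each other there, with 30.0, 29.5 and 29.2 RPKM, and their replicates overlapped. The basal cells of the gain of function experiment had another order, in which Dnmt1 with 66.8 RPKM was followed by Ezh2 with 33.7, Eed with 28.5 and Suz12 with 27.8 in Control cells, while Dnmt3a had 15.9. Eed and Suz12 overlapped in their replicates in Control and WT RANKL cells, and all other neighbours in these 2 orders were apart.

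**Figure D1:**
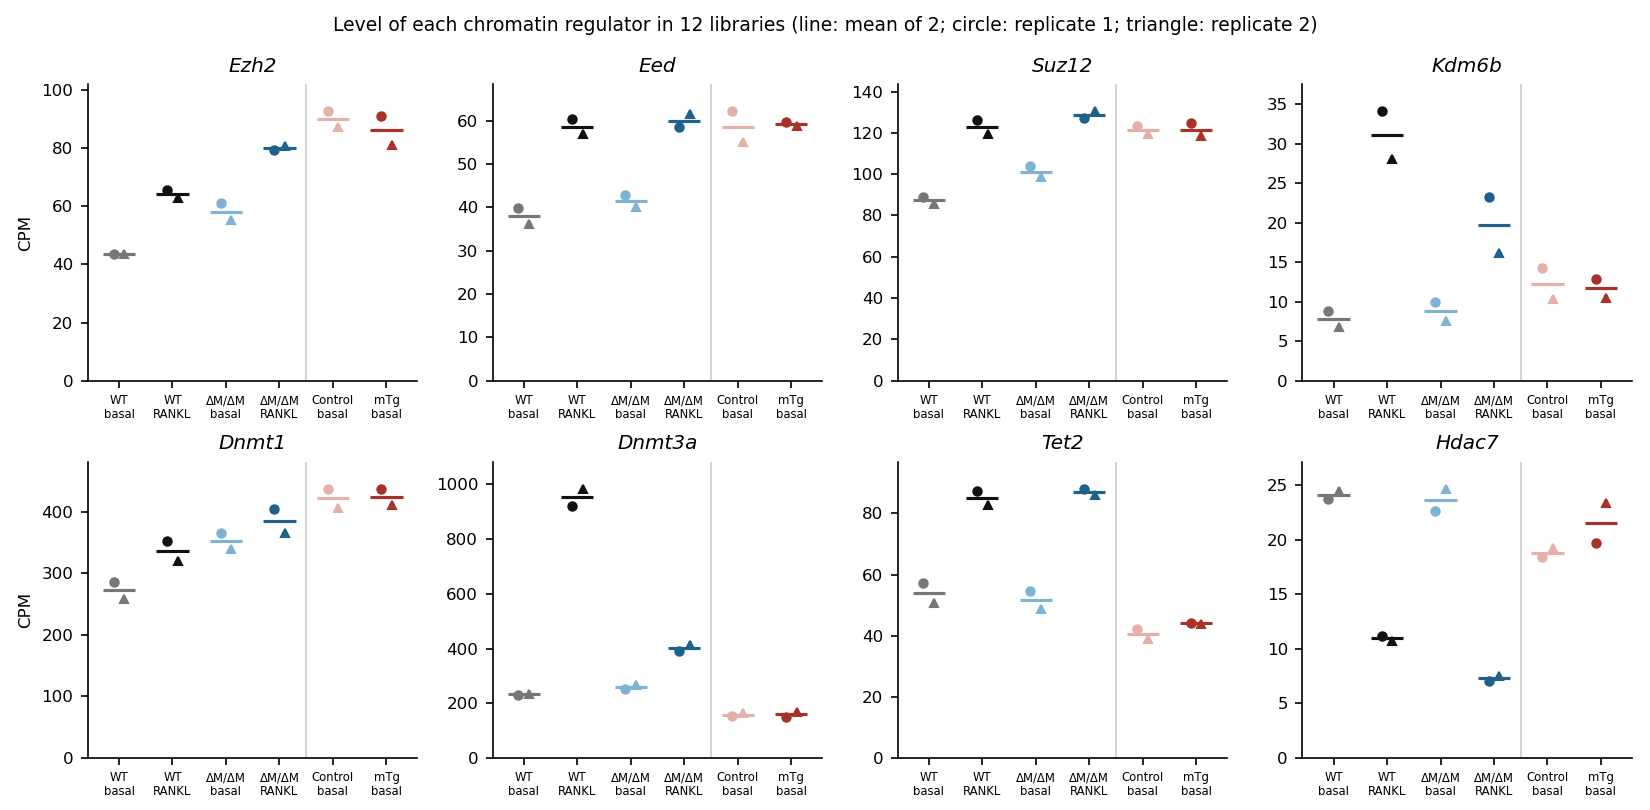
Level of each of the 8 regulators in CPM (linear axes starting at 0) in the 6 conditions, with 1 point for each library (circle, replicate 1; triangle, replicate 2) and a line at the mean of 2. Dnmt3a stands at 922 and 984 CPM in WT RANKL cells and at 414 CPM or lower in every other library, while Hdac7 is lowest in Mir182ΔM/ΔM RANKL cells, at 7.06 and 7.52 CPM.

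With RANKL, 7 of the 8 regulators rose and Hdac7 fell in WT cells. The largest rises were those of Dnmt3a (4.09-fold) and Kdm6b (3.64-fold), and Hdac7 fell 2.10-fold. Changes of this kind were frequent, since 62.5% of the 11691 genes tested passed the adjusted p of 0.05 by limma, 40.6% higher and 22% lower. The median log2 difference was 0.58 over the 8 regulators and 0.19 over all genes. With TMM factors in place of library totals the median of all genes was lower by 0.20 on the log2 scale, which turned 4741 genes higher and 2571 lower into 3369 higher and 3562 lower. In Mir182ΔM/ΔM cells 6 regulators rose and Hdac7 fell, with 56.8% of all genes past the threshold, 30.4% higher and 26.4% lower. In all these bulk values fewer cells of a type and less RNA per cell cannot be told apart.

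Ezh2, the methyltransferase of PRC2, had 43.5 and 43.5 CPM in WT basal cells and 65.6 and 62.7 CPM after RANKL. Mir182ΔM/ΔM cells went from 61.1 and 55.2 CPM to 79.4 and 80.9 CPM. The groups did not overlap in either genotype, and the log2 differences were 0.55 (SE 0.07; limma adjusted p = 4.8e-04) and 0.46 (SE 0.07; limma adjusted p = 0.0014). Eed, the reader of the mark, rose from 40.0 and 36.2 CPM to 60.3 and 57.0 CPM in WT cells and from 43.0 and 40.1 CPM to 58.6 and 61.5 CPM in Mir182ΔM/ΔM cells. Suz12, the scaffold, rose from 89.0 and 85.7 CPM to 126 and 119.6 CPM in WT cells and from 104 and 98.5 CPM to 127 and 130.4 CPM in Mir182ΔM/ΔM cells. RANKL libraries were above basal libraries without overlap in all 3 subunits and both genotypes. The log2 differences of Eed were 0.61 and 0.52 and those of Suz12 were 0.49 and 0.35, all past the threshold of the limma test.

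The rise of the core was not shared by the alternative enzyme of the complex. Ezh1, which can replace Ezh2 in PRC2 and prevails in resting cells, fell in WT cells from 88.6 and 85.8 CPM to 55.2 and 60.7 CPM (log2 difference -0.58, limma adjusted p = 3.8e-04). In Mir182ΔM/ΔM cells it fell from 75.1 and 79.0 CPM to 40.9 and 42.5 CPM (log2 difference -0.87, limma adjusted p = 5.8e-05). The ratio of Ezh2 to Ezh1 in RPKM thus went from 0.775 and 0.799 to 1.88 and 1.63 in WT cells and from 1.28 and 1.10 to 3.06 and 3.01 in Mir182ΔM/ΔM cells. It was 2.84 and 2.33 in Control basal cells, above both WT RANKL values although no RANKL had been given. Among the other 9 PRC2 genes examined, which were Ezh1, Rbbp4, Rbbp7, Jarid2, Mtf2, Phf1, Phf19, Aebp2 and the demethylase Kdm6a, 4 rose and 2 fell in WT cells and 4 rose and 3 fell in Mir182ΔM/ΔM cells. Jarid2, which guides PRC2 to DNA, had the largest rise, from 39.3 and 38.8 CPM to 216 and 212 CPM in WT cells and from 38.2 and 36.1 CPM to 211 and 216 CPM in Mir182ΔM/ΔM cells.

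Ezh2, Suz12 and Dnmt1 each held a match to a short promoter sequence that was not used to choose them. The promoters, from 250 bases before to 50 bases after the start (RefSeq, GRCm38.p6), were searched on both strands for TTTNNCGC, the letters bound by E2F factors, which switch on genes of DNA replication. These letters were present for 7.13% of 17224 genes and for 3 of the 7 regulators with a promoter in the table, and 1 match for each of these is printed on the strand of its gene with the matching letters in capitals.
Ezh2, minus strand, chr6:47595020-47595027: ggttgctgcgTTTGGCGCtcggtccggt
Suz12, plus strand, chr11:79992887-79992894: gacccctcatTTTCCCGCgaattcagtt
Dnmt1, minus strand, chr9:20952583-20952590: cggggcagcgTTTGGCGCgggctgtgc
The Ezh2 match begins 4 bases into the transcript, the Dnmt1 match 34 bases into it and the Suz12 match 219 bases before it, and Dnmt1 also held 2 overlapping matches in the reverse orientation, not printed. The AP-1 letters TGANTCA, bound by Fos and Jun, were found in a promoter of Hdac7 and in 8.44% of all genes. The NFAT letters TGGAAA were found in a promoter of Dnmt1, another than that of its printed match, and in 22.3% of all genes. Genes with several promoters, such as Dnmt1 with 3 and Hdac7 with 4, counted if any of these held the letters. Which promoter these cells use was not tested. The promoter of Tet2 held 57 CpG, more than 99.8% of genes. The promoter with most CpG held 47 for Dnmt3a, 35 for Hdac7 and 33 for Dnmt1. The promoters of Suz12, Ezh2 and Eed held 41, 31 and 17, beside a median of 15. The E2F letters themselves hold a CpG. Whether genes with as many CpG hold these letters more often than the 7.13% of all genes was not tested. Such matches describe the letters in these windows and do not show binding.

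Kdm6b, the demethylase that opposes Ezh2, was the least abundant regulator in basal cells. It had 8.87 and 6.81 CPM in WT basal cells and 34.1 and 28.1 CPM after RANKL, a log2 difference of 1.86 (SE 0.21; limma adjusted p = 2.3e-04). In Mir182ΔM/ΔM cells it went from 9.99 and 7.61 CPM to 23.3 and 16.1 CPM, a log2 difference of 1.07 (SE 0.21; limma adjusted p = 0.0043). Replicate 1 was above replicate 2 in all 6 conditions, and the RANKL and basal libraries did not overlap. Its relative Kdm6a, which removes the same mark, had log2 differences of 0.09 in WT cells, not past the threshold, and -0.23 in Mir182ΔM/ΔM cells (limma adjusted p = 0.0319).

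Dnmt3a, the de novo DNA methyltransferase, had 229 and 235 CPM in WT basal cells and 922 and 984 CPM after RANKL. Mir182ΔM/ΔM cells had 253 and 268 CPM before and 392 and 414 CPM after RANKL. The rise was 4.09-fold in WT cells (log2 difference 2.03, SE 0.07; limma adjusted p = 5.2e-07) and 1.55-fold in Mir182ΔM/ΔM cells (log2 difference 0.63, SE 0.07; limma adjusted p = 1.8e-04), and groups did not overlap in either. Of all genes tested, 3.38% had a higher log2 difference than Dnmt3a in WT cells. An antisense transcript, Dnmt3aos, overlaps the gene on the opposite strand, with 1.30 to 7.91 CPM. Dnmt3b, the other de novo enzyme, was scarce in all libraries, at 0.58 to 1.03 RPKM.

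Dnmt1, which maintains DNA methylation in dividing cells, had 286 and 259 CPM in WT basal cells and 353 and 320.4 CPM after RANKL (log2 difference 0.31, 95% interval 0.10 to 0.51; limma adjusted p = 0.0185). This difference did not pass with TMM factors (0.10, limma adjusted p = 0.35) or by edgeR on reads recovered from the CPM. The call of Dnmt1 was also lost without replicate 2 of WT basal or without replicate 1 of WT RANKL. In Mir182ΔM/ΔM cells it went from 365 and 339.7 CPM to 404 and 365 CPM, a log2 difference of 0.13 (95% interval -0.08 to 0.33) whose call was gained with the replicate number as a block (limma adjusted p = 5.1e-04), with which 42.7% of all genes were higher. Uhrf1, the protein that brings Dnmt1 to newly copied DNA, rose more, from 65.9 and 71.9 CPM to 144 and 159 CPM in WT cells and from 107 and 116 CPM to 195 and 222 CPM in Mir182ΔM/ΔM cells. The log2 differences of Uhrf1 were 1.13 (limma adjusted p = 4.4e-05) and 0.90 (limma adjusted p = 1.7e-04).

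Tet2, which oxidises methylated cytosine as a step towards its removal, rose by a similar step in both genotypes. It went from 57.2 and 50.7 CPM to 87.3 and 82.8 CPM in WT cells and from 54.6 and 48.8 CPM to 88.1 and 86.2 CPM in Mir182ΔM/ΔM cells. The log2 differences were 0.65 (limma adjusted p = 5.2e-04) and 0.74 (limma adjusted p = 3.1e-04). Tet3 did not pass the test in either genotype, with log2 differences of 0.10 and -0.11. Tet1 was nearly absent, with means of 0.0135 to 0.0278 RPKM in the 6 conditions. The ratio of Tet3 to Tet2 in RPKM accordingly went from 2.68 and 2.85 to 1.92 and 1.85 in WT cells and from 2.84 and 2.95 to 1.61 and 1.56 in Mir182ΔM/ΔM cells.

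Hdac7, the class IIa deacetylase, was the only 1 of the 8 regulators that fell. It had 23.8 and 24.5 CPM in WT basal cells and 11.2 and 10.8 CPM after RANKL, and 22.6 and 24.7 CPM against 7.06 and 7.52 CPM in Mir182ΔM/ΔM cells. The basal and RANKL libraries did not overlap. The fall was 2.10-fold in WT cells (log2 difference -1.07, limma adjusted p = 4.0e-05) and 2.98-fold in Mir182ΔM/ΔM cells (log2 difference -1.57, limma adjusted p = 7.4e-06). Slc48a1, on the opposite strand, overlaps only the end of Hdac7, at chr15:97792664-97792692. Slc48a1 also fell, from 596 and 535 CPM to 242 and 214 CPM in WT cells. In Mir182ΔM/ΔM cells it fell from 543 and 475 CPM to 253 and 224 CPM. After RANKL the Slc48a1 values of the genotypes overlapped, while those of Hdac7 did not. Whether the counting used strand is not given in the sources used here, and the part of this overlap was not tested. Of the other class IIa enzymes, Hdac9 fell from 46.4 and 41.5 CPM to 12.3 and 11.3 CPM in WT cells and from 51.0 and 44.1 CPM to 11.5 and 11.5 CPM in Mir182ΔM/ΔM cells. Hdac4 and Hdac5 did not pass in either genotype, with log2 differences between -0.21 and -0.06.

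Against Control basal cells, whose Lyz2 and Ifi202b values resembled those of WT RANKL cells, the picture of the PRC2 core and of Dnmt1 was different. In this comparison, which joins 2 experiments scaled each to their library totals, 3 regulators were higher and 3 lower in WT RANKL cells, while 52.7% of 11794 genes passed, 29.6% higher and 23.1% lower. Dnmt3a was 5.99-fold higher (log2 difference 2.58, limma adjusted p = 5.2e-09), Kdm6b had a log2 difference of 1.28 (limma adjusted p = 0.0011) and Tet2 of 1.05 (limma adjusted p = 4.7e-06), and Hdac7 was lower (log2 difference -0.73, limma adjusted p = 1.4e-04). These 4 kept the direction they had against WT basal cells. Ezh2 and Dnmt1 turned from higher to lower, with log2 differences of -0.48 (limma adjusted p = 5.4e-04) and -0.32 (limma adjusted p = 0.0089). Eed and Suz12 did not differ past the threshold, with log2 differences of 0.00 (95% interval -0.18 to 0.18) and 0.02 (95% interval -0.11 to 0.14). The summed level of 18 proliferation markers stood beside this, with a mean of 2592 CPM in WT basal, 3708 CPM in WT RANKL and 4823 CPM in Control basal cells, and its part in these differences was not tested.

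**Figure D2:**
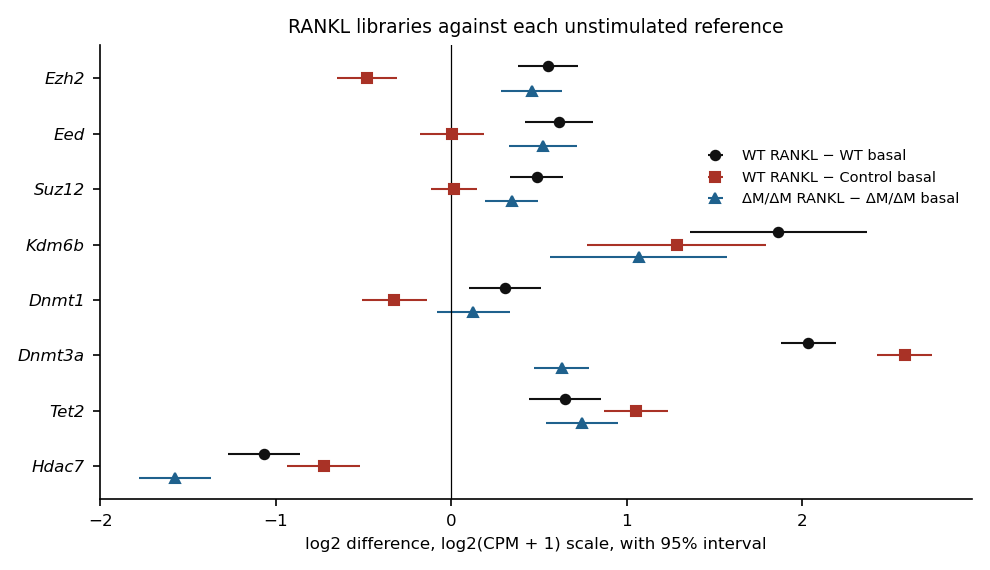
Fitted log2 difference of each regulator with its 95% interval on the log2(CPM + 1) scale for RANKL libraries against an unstimulated reference: WT RANKL against WT basal, WT RANKL against Control basal, and Mir182ΔM/ΔM RANKL against Mir182ΔM/ΔM basal. Dnmt3a, Kdm6b and Tet2 are to the right of 0 and Hdac7 to the left with all 3 references, whereas Ezh2 and Dnmt1 move from 0.55 and 0.31 to -0.48 and -0.32 when Control basal replaces WT basal.

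Before RANKL, deletion of miR-182 went with a higher level of Ezh2 and with no other change past the threshold among the 8 regulators. Ezh2 had 43.5 and 43.5 CPM in WT and 61.1 and 55.2 CPM in Mir182ΔM/ΔM basal cells, without overlap, a log2 difference of 0.41 (95% interval 0.24 to 0.58; limma adjusted p = 0.0291). Across all genes 3.81% passed, 2.71% higher and 1.1% lower. Dnmt1, with 286 and 259 CPM in WT against 365 and 339.7 CPM in Mir182ΔM/ΔM cells, also showed no overlap but missed the threshold (log2 difference 0.37, 95% interval 0.17 to 0.58; limma adjusted p = 0.0736). The intervals of the other 6 were 0.06 to 0.36 for Suz12, 0.01 to 0.32 for Dnmt3a, -0.07 to 0.32 for Eed, -0.36 to 0.65 for Kdm6b, -0.27 to 0.15 for Tet2 and -0.23 to 0.18 for Hdac7. With the replicate number as a block Ezh2, Suz12, Dnmt1 and Dnmt3a passed as higher, while 31.2% of all genes passed, 18.6% higher and 12.7% lower. The call of Ezh2 was lost whenever any 1 of the 8 loss of function libraries was left out, although within replicates 1 and 2 the log2 difference was 0.48 and 0.34.

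Genes of proliferation were higher in the same basal cells. Of 18 proliferation markers 10 were higher and none lower in Mir182ΔM/ΔM than in WT basal cells by limma, with a median log2 difference of 0.41 beside 0.01 over all genes, and with the block all 18 were higher. Uhrf1 rose with them (log2 difference 0.68, limma adjusted p = 0.0116). Over the 12 libraries, which share the 6 conditions, the log2 level of Ezh2 centred by replicate number followed the mean of these markers with a Pearson r of 0.987, that of Dnmt1 with 0.947, that of Suz12 with 0.918 and that of Eed with 0.900. The r was 0.411 for Kdm6b, -0.146 for Dnmt3a, -0.0397 for Tet2 and -0.452 for Hdac7. With 9 osteoclast markers the order was another, with 0.950 for Kdm6b, 0.920 for Dnmt3a, 0.916 for Tet2 and -0.879 for Hdac7. Then came 0.554 for Suz12 and 0.518 for Eed, and 0.119 for Ezh2 and -0.0325 for Dnmt1. How often other genes reach such an r is not given, and 62.5% of genes passed with RANKL in WT cells. After RANKL most of these markers were lower in Mir182ΔM/ΔM than in WT cells. There Tet2 had a log2 difference of 0.04, and Hdac7, despite its negative r, was also lower (-0.53).

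**Figure D3:**
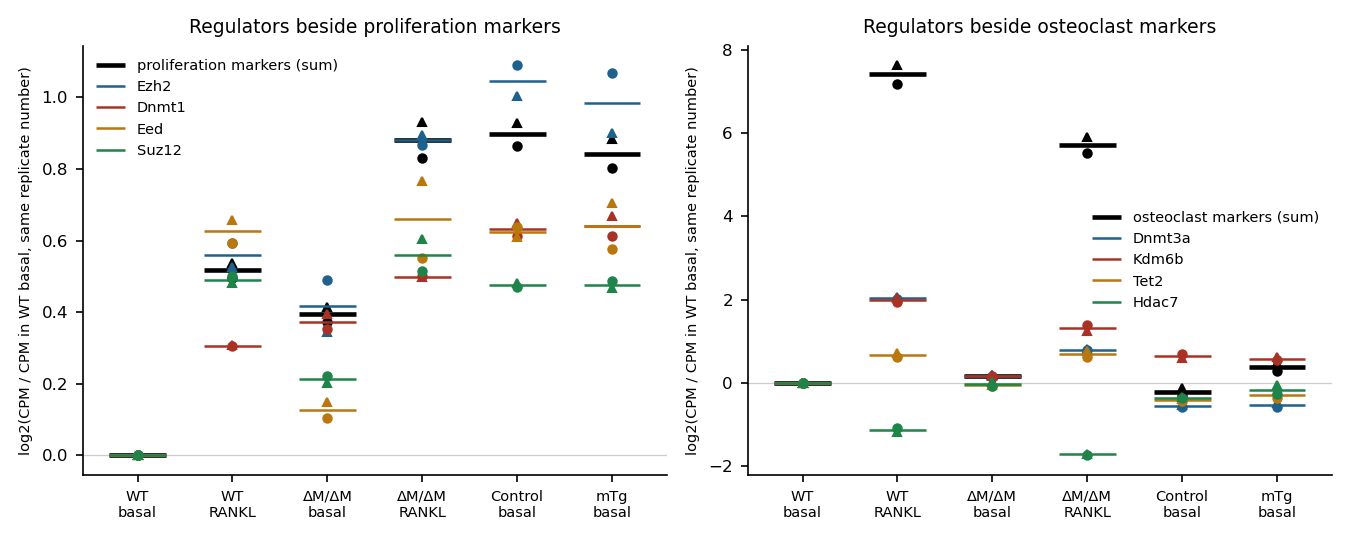
Level of regulators relative to WT basal cells of the same replicate number, as log2 ratio, in the 6 conditions beside the sum of the proliferation markers (left) and of the osteoclast markers (right), with 1 point for each library and a line at the mean of 2. Ezh2 follows the steps of the proliferation markers, including the high level in Control and Mir182mTg cells, whereas Dnmt3a and Kdm6b are raised most in WT RANKL cells, where the osteoclast markers are highest.

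After RANKL, Dnmt3a, Hdac7 and Kdm6b were lower and Ezh2 was higher in Mir182ΔM/ΔM than in WT cells. Among all genes 45.1% passed, 14.3% higher and 30.9% lower, and TMM factors turned 1668 higher and 3607 lower genes into 2438 higher and 2362 lower, a shift of the median by 0.15 on the log2 scale. The median log2 difference was 0.03 over the 8 regulators and -0.14 over all genes. What set the WT RANKL libraries apart in Lyz2 and Ifi202b is part of all these differences.

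Dnmt3a had 392 and 414 CPM in Mir182ΔM/ΔM and 922 and 984 CPM in WT RANKL cells, so that it was 2.36-fold lower (log2 difference -1.24, SE 0.07; limma adjusted p = 1.3e-05). The difference was -1.23 within replicate 1 and -1.25 within replicate 2. Hdac7 had 7.06 and 7.52 against 11.2 and 10.8 CPM and was 1.45-fold lower (log2 difference -0.53; limma adjusted p = 0.0023). Kdm6b had 23.3 and 16.1 against 34.1 and 28.1 CPM, which did not overlap (log2 difference -0.65, 95% interval -1.15 to -0.14; limma adjusted p = 0.0436). Its call was lost with TMM factors (log2 difference -0.50, limma adjusted p = 0.11), by edgeR on reads recovered from the CPM and without the filter on low values. It was also lost without replicate 1 or 2 of WT RANKL or replicate 2 of Mir182ΔM/ΔM RANKL.

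Ezh2 had 79.4 and 80.9 CPM in Mir182ΔM/ΔM RANKL cells, above 65.6 and 62.7 CPM in WT RANKL cells (log2 difference 0.32, limma adjusted p = 0.011). This call was lost without replicate 2 of WT RANKL or of Mir182ΔM/ΔM RANKL, and the difference within replicates 1 and 2 was 0.27 and 0.36. For Eed, Suz12 and Tet2 the log2 differences were 0.03, 0.07 and 0.04, with 95% intervals of -0.16 to 0.23, -0.08 to 0.22 and -0.17 to 0.24. Dnmt1 had a log2 difference of 0.19 (95% interval -0.02 to 0.40) and passed as higher with the block, among 23.4% of all genes, and with TMM factors (log2 difference 0.35, limma adjusted p = 0.0159). With TMM factors, under which 20.9% of all genes were higher, Suz12 also passed (log2 difference 0.22, limma adjusted p = 0.023).

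The responses to RANKL differed between genotypes for Dnmt3a and Hdac7 by the test of the interaction, in which 24.6% of all genes passed, 7.44% higher and 17.1% lower. The response of Dnmt3a was smaller in Mir182ΔM/ΔM than in WT cells by 1.41 on the log2 scale (interaction -1.41, 95% interval -1.63 to -1.19; limma adjusted p = 1.2e-04), with -1.37 within replicate 1 and -1.44 within replicate 2. The fall of Hdac7 was larger in Mir182ΔM/ΔM cells (interaction -0.50, 95% interval -0.79 to -0.22; limma adjusted p = 0.0234), with -0.53 and -0.48 within the replicates. The call of Hdac7 was lost with TMM factors (-0.35, limma adjusted p = 0.0904) and without any 1 of 6 libraries, which were both of WT basal, both of WT RANKL, replicate 2 of Mir182ΔM/ΔM basal and replicate 1 of Mir182ΔM/ΔM RANKL (-0.53 to -0.44). Kdm6b had an interaction of -0.79 (95% interval -1.51 to -0.08; limma adjusted p = 0.10), and it passed as lower with the block, as did Suz12 (-0.14) and Dnmt1 (-0.18), so that 5 regulators were lower there, among 42.8% of all genes. The interactions of Ezh2 (-0.09), Eed (-0.09) and Suz12 (-0.14) turned to 0.07, 0.07 and 0.03 with TMM factors, and that of Tet2 was 0.10 (95% interval -0.20 to 0.39). The median was -0.16 over the 8 regulators and -0.15 over all genes.

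**Figure D4:**
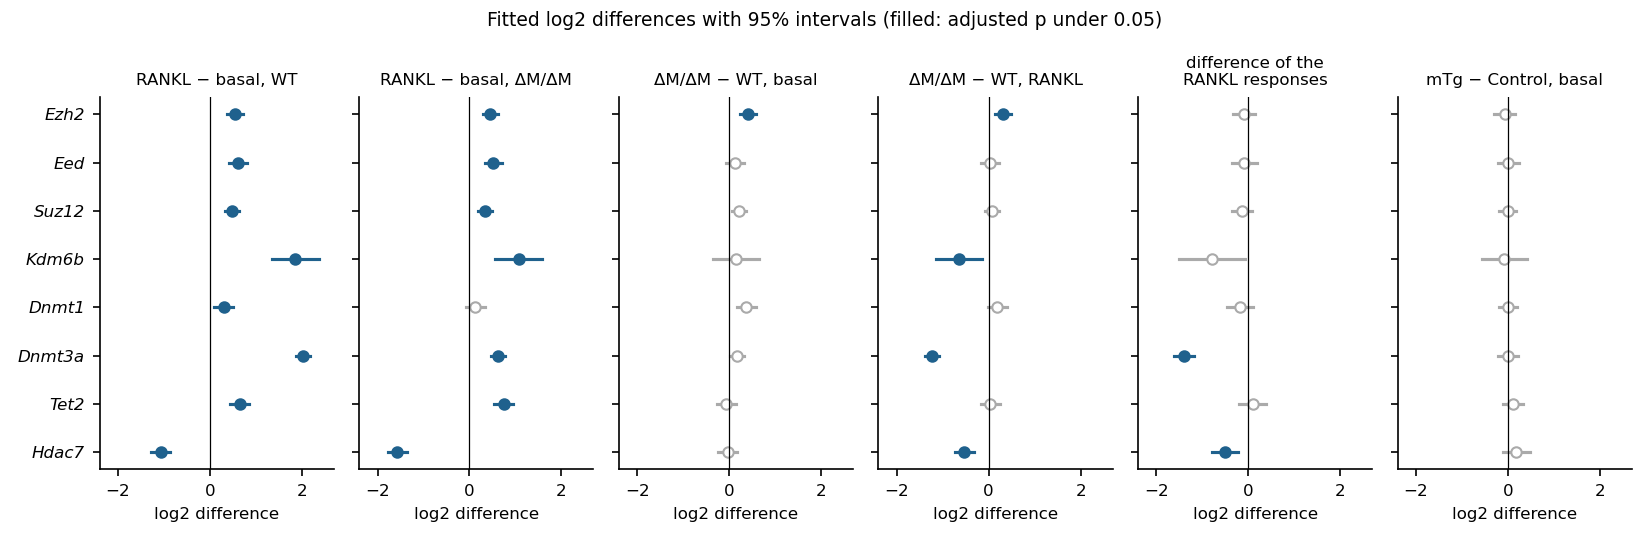
Fitted log2 differences of the 8 regulators with 95% intervals for the comparisons of the study, with filled points where the adjusted p is under 0.05. Dnmt3a reaches 2.03 with RANKL in WT and 0.63 in Mir182ΔM/ΔM cells, an interaction of -1.41; the small negative interactions of Ezh2, Eed and Suz12 turn positive with TMM factors, and no point is filled for Mir182mTg against Control.

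Overexpression of miR-182 was not accompanied by a change of any regulator past the threshold in basal cells. None of the 8 passed the edgeR test, none had an unadjusted p under 0.05 by edgeR, DESeq2 or limma, and 31 of 12081 genes (0.257%) passed by edgeR, 0.0993% higher and 0.157% lower. With the replicate number as a block none of the 8 passed, 2 had an unadjusted p under 0.05, and 15.1% of all genes passed. Hdac7 had 18.5 and 19.2 CPM in Control and 19.8 and 23.4 CPM in Mir182mTg cells, without overlap (log2 difference 0.18, 95% interval -0.11 to 0.48; edgeR adjusted p = 0.98). Dnmt3a had 153 and 163 against 151 and 168 CPM, which overlapped, with an interval of -0.21 to 0.22. Tet2 had 42.1 and 38.9 against 44.1 and 43.9 CPM, higher in both Mir182mTg libraries without overlap, with an interval of -0.10 to 0.32. Ezh2 had 92.6 and 87.2 against 91.2 and 81.2 CPM, and Kdm6b 14.2 and 10.3 against 12.9 and 10.5 CPM, which overlapped in both genes, with intervals of -0.30 to 0.16 and -0.57 to 0.41. Dnmt1 (437 and 406 against 436 and 411 CPM), Suz12 (123 and 119.6 against 125 and 119 CPM) and Eed (62.2 and 55.1 against 59.6 and 58.9 CPM) overlapped too, with intervals within 0.23 of 0 on the log2 scale.

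The genes that work with these regulators also moved in both directions with RANKL. Of all 11691 genes tested, 40.6% rose and 22% fell in WT cells, and 30.4% rose and 26.4% fell in Mir182ΔM/ΔM cells. With TMM factors 3369 of them rose and 3562 fell in WT cells. Of 19 subunits of PRC1, the complex that reads the mark of PRC2, 5 rose and 8 fell in WT cells and 5 rose and 9 fell in Mir182ΔM/ΔM cells, and the subunit Cbx6 fell most, with log2 differences of -1.04 and -1.93. Of 13 partners of DNA methylation 4 rose and 2 fell in WT cells, or 4 and 5 with TMM factors, and 3 rose and 4 fell in Mir182ΔM/ΔM cells. Of 19 histone deacetylases and corepressors 6 rose and 3 fell in WT cells, which turned to 3 and 7 with TMM factors, and 2 rose and 5 fell in Mir182ΔM/ΔM cells. Of 20 enzymes that methylate or demethylate lysines 4 and 9 of histone H3, 12 rose and 1 fell in WT cells, or 7 and 4 with TMM factors, and 5 rose and 4 fell in Mir182ΔM/ΔM cells. With the block 5 DNA methylation partners rose and 4 fell in WT cells and 3 rose and 7 fell in Mir182ΔM/ΔM cells. Of the deacetylases and corepressors 11 rose and 5 fell in WT cells and 7 rose and 9 fell in Mir182ΔM/ΔM cells with the block, and of the enzymes for lysines 4 and 9 of histone H3 15 and 4 in WT cells and 7 and 8 in Mir182ΔM/ΔM cells. With the block 42.7% of all genes rose in Mir182ΔM/ΔM cells. The other shares with the block are not given, so these counts cannot be read as a trait of the lists.

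Between genotypes after RANKL, these lists are given beside the 14.3% of all genes that were higher and the 30.9% that were lower. Of the PRC2 partners 2 were higher and 4 lower in Mir182ΔM/ΔM than in WT cells, of the PRC1 subunits 2 and 6, of the DNA methylation partners 1 and 4, and of the deacetylases and corepressors 0 and 4 by limma. With the block the last 3 became 3 and 12, 3 and 8, and 4 and 11, and with TMM factors, which balance all genes in this comparison, the 4 lists had 3 and 3, 2 and 5, 2 and 3, and 0 and 3. Of the enzymes for lysines 4 and 9 of histone H3, 1 was higher and 11 were lower, or 3 and 7 with TMM factors. Of all genes 20.9% were higher with TMM factors and 23.4% with the block, for which the share lower is not given. The demethylase of lysine 4, Kdm5b, stood out with 42.8 and 43.7 CPM in WT RANKL cells and 12.1 and 12.9 CPM in Mir182ΔM/ΔM RANKL cells (log2 difference -1.71, limma adjusted p = 1.0e-05), and it had 23.0 and 22.4 CPM in WT and 14.6 and 16.3 CPM in Mir182ΔM/ΔM basal cells. Ezh1 and Kdm6a were both lower (log2 difference -0.47 for each, limma adjusted p = 0.0020 for each), whereas Uhrf1 was higher (log2 difference 0.46, limma adjusted p = 0.0067) and so was Phf19, which anchors PRC2 at CpG-rich DNA (log2 difference 0.75, limma adjusted p = 2.5e-04).

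**Figure D5:**
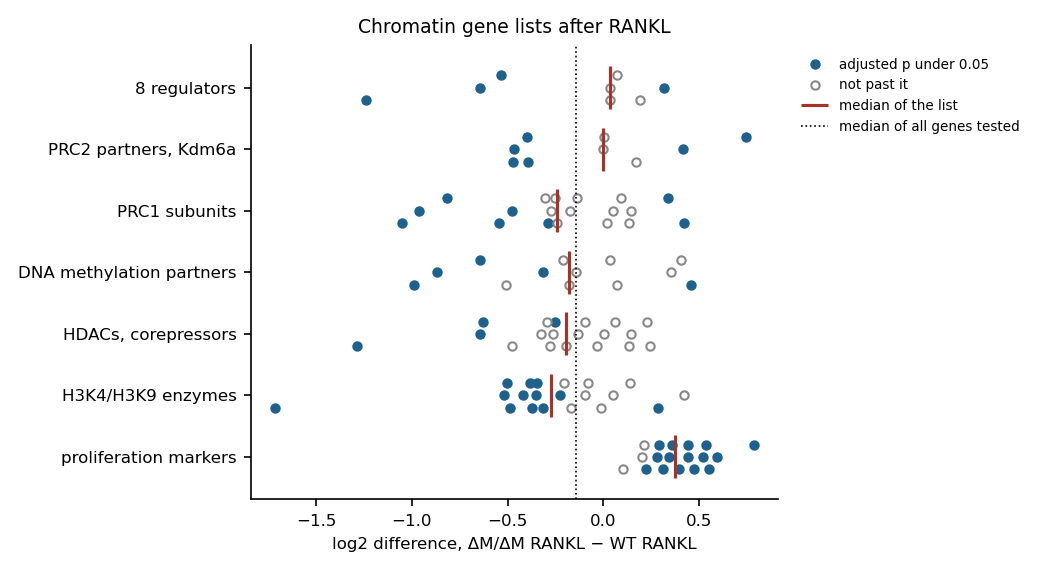
Log2 difference between Mir182ΔM/ΔM and WT cells after RANKL for each gene of the lists (filled, adjusted p under 0.05; open, not past it), with the median of each list and, dotted, the median of all genes tested at -0.14. The 18 proliferation markers lie between 0.10 and 0.79, while Kdm5b is lowest at -1.71 and Dnmt3a is at -1.24; with TMM factors the median of all genes rises by 0.15.

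The genes of osteoclast fate on which these regulators are known to act moved in both directions. Nfatc1, the master transcription factor of the osteoclast, rose from 104 and 91.9 CPM to 647 and 523 CPM in WT cells and had 107 and 90.3 CPM before and 122 and 100.5 CPM after RANKL in Mir182ΔM/ΔM cells, an interaction of -2.38. Prdm1 (Blimp1), which represses the inhibitors of differentiation, rose from 11.9 and 9.70 CPM to 179 and 166 CPM in WT cells and from 8.81 and 8.02 CPM to 29.2 and 25.9 CPM in Mir182ΔM/ΔM cells. Irf8, an inhibitor of differentiation that is a known target of DNA methylation by Dnmt3a, fell in both genotypes, from 188 and 184 CPM to 62.4 and 59.7 CPM in WT cells and from 178 and 168 CPM to 33.5 and 34.9 CPM in Mir182ΔM/ΔM cells. After RANKL the log2 difference of Irf8 between genotypes was -0.82, and what set the WT RANKL libraries apart is part of it. DNA methylation was not measured. Bcl6, another inhibitor, was higher in Mir182ΔM/ΔM than in WT RANKL cells (log2 difference 0.72, limma adjusted p = 0.0061). Of 10 osteoclast markers all rose in both genotypes, with median log2 differences of 6.59 in WT and 4.25 in Mir182ΔM/ΔM cells, and 8 were lower and 1 higher in Mir182ΔM/ΔM RANKL cells.

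The genes whose pattern over the 12 libraries was most like that of each regulator, by Pearson r of the log2 level centred by replicate number among 9807 genes with a mean of at least 5 CPM, were different for each. They were Rbbp4, Rrm2 and Dtl for Ezh2 (r of 0.993, 0.993 and 0.992), Ltv1, Orc2 and Syncrip for Eed (0.993, 0.991 and 0.991), Brca1, Hsp90aa1 and Pdss1 for Suz12 (0.993, 0.993 and 0.992) and Stil, E2f8 and Clspn for Dnmt1 (0.992, 0.990 and 0.985). For Dnmt3a they were Vav2, Gm608 and Kbtbd11 (0.989, 0.988 and 0.988), for Kdm6b Myo1e, Creb3l1 and Cops7a (0.998, 0.996 and 0.995), for Tet2 Serpinb8, Prrc2b and Cd82 (0.994, 0.994 and 0.992) and for Hdac7 Arhgap26, Svil and Slc36a1 (0.997, 0.995 and 0.995). Among the regulators themselves the r was 0.971 for Eed and Suz12, 0.960 for Ezh2 and Dnmt1 and 0.898 for Dnmt3a and Tet2. It was 0.888 for Ezh2 and Suz12, 0.875 for Ezh2 and Eed and 0.817 for Kdm6b and Dnmt3a. The most negative values were -0.843 for Tet2 and Hdac7 and -0.830 for Kdm6b and Hdac7. Since the 12 libraries form 6 conditions, these values describe likeness over few independent points.

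The 8 regulators lie on 7 chromosomes (GENCODE vM21, GRCm38). Kdm6b and Suz12 share chromosome 11, at chr11:69398508-69413675 on the minus strand and chr11:79993106-80034123 on the plus strand. Ezh2 is at chr6:47530139-47595341, Eed at chr7:89954654-89980983, Dnmt1 at chr9:20907209-20959888, Tet2 at chr3:133463679-133545139 and Hdac7 at chr15:97792664-97844502, all on the minus strand, and Dnmt3a is at chr12:3806007-3914443 on the plus strand.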

How the data were processed

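Samples were assigned to groups and replicate numbers from their labels. The 8 regulators and the gene lists were chosen with earlier results of these data known. The authors deposited CPM (each read number divided by the total over genes) for WT and Mir182ΔM/ΔM samples, and 100% of these values were whole multiples of 1 read (tolerance 0.01). For Control and Mir182mTg samples they deposited raw counts of reads per gene, and the deposited counts were here scaled to CPM. For replicate 1 the deposited files also hold RPKM, which gave 1 length per gene for all replicates. The sources name TopHat, HISAT2, Cufflinks, HTSeq, edgeR and mm10 on a HiSeq 4000. Strandedness of the counting is not given in the sources used here.

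Loss of function values were tested on the log2(CPM + 1) scale with limma (version 3.58.1, R 4.3.3, eBayes with trend), for 11691 genes that reached 1 CPM in 2 or more samples, in 1 fit of 4 groups. Fold changes on this scale understate the change of low genes. For the counts of Control and Mir182mTg the quasi-likelihood test of edgeR (version 4.0.16) was used, after filterByExpr and TMM scaling. P-values were adjusted by Benjamini-Hochberg over all genes tested, two-sided, with a threshold of 0.05. All groups had 2 replicates. The study describes these as biological replicates. The labels do not tie them to separate mice or cultures, so p-values measure the spread between these samples, part of which may be technical. Intervals and the limit of 3 reads cover no other error than the spread or the counting. The scripts were tested on simulated data.

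Replicate numbers mark different preparations in the labels (poly-A RNA for replicate 1, total RNA for replicate 2), and samples of the same number deviated together from their group means (Pearson r over genes of 0.692 to 0.758 in loss of function and 0.770 in gain of function pairs). The fit with this number as a block was therefore compared throughout. The 2 replicates of each group differed by more than counting noise. Other alternatives were another filter, pseudocount or scaling, edgeR on reads recovered from the CPM (genes called: 6917 with RANKL in WT, 6647 with RANKL in Mir182ΔM/ΔM, 420 between genotypes in basal and 4751 in RANKL cells, and 2258 in the interaction), DESeq2 (version 1.42.0) for the counts, the contrast's samples alone, each sample left out, and Control as baseline. Edits of 27 gene names into dates touched no gene named here. Genes named are the 8 regulators, their relatives and partners fixed by name, fate genes, and the called gene of a list with the largest change in a direction.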

Additional observations from a re-analysis of the deposited data

Results flagged for a closer look

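The responses of Dnmt3a and Hdac7 to RANKL differed between WT and Mir182ΔM/ΔM cells by the test of the interaction (limma). For Dnmt3a the response in Mir182ΔM/ΔM minus that in WT cells was -1.41 on the log2 scale, and it kept this direction and passed under every alternative of that comparison, from -1.45 to -1.24. For Hdac7 it was -0.50, which passed in the fit as reported but not with TMM factors or quantile normalization, nor by edgeR on the recovered reads. It was also lost without 6 of the 8 libraries, each left out alone. In both genes the genotype and whatever set the WT RANKL libraries apart in Lyz2 and Ifi202b cannot be told apart.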

How the results depend on the processing

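Of the recomputed log2 differences of the 8 regulators, 695 kept their direction and their side of the threshold, 46 reversed, 35 lost and 32 gained their call. With Control basal as baseline, with or without the replicate block, the regulators higher in WT RANKL cells went from 7 to 3 and those lower from 1 to 3, and Ezh2 and Dnmt1 reversed to -0.48 and -0.32. Leaving out 1 library at a time left 6 to 7 higher and 1 lower. Of the regulators, 1 was higher in Mir182ΔM/ΔM than in WT basal cells, against 4 with the replicate block (with or without TMM factors, and in edgeR), 0 with these samples alone and 0 without any 1 library. After RANKL 1 was higher, against 3 with TMM factors or edgeR, 2 with the replicate block, 5 with the block and TMM factors or edgeR, and 0 to 1 without any 1 library. In the interaction 2 were lower, against 1 with TMM factors, quantile normalization or edgeR, 5 with the replicate block and 1 to 2 without any 1 library, and 1 (Tet2) instead of 0 was higher with the block and TMM factors or edgeR. Of all genes, 2.71% were higher between basal genotypes, and 18.6% with the block. After RANKL 14.3% were higher, against 20.9% with TMM factors and 23.4% with the block. In the interaction 17.1% were lower, and 42.8% with the block. For the block joined with TMM factors or edgeR the share is not given, so those counts cannot be set against all genes. Beside the calls named here and in the report, the block changed no other call of a regulator.

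The interaction of Ezh2 reversed to 0.0729 with TMM factors, with or without the replicate block, to 0.0314 with quantile normalization, to 0.0657 with edgeR and to 0.0633 with edgeR and the block. That of Eed reversed to 0.0745 with TMM factors, with or without the block, and with edgeR, with or without it (0.0718 and 0.0726), and to 0.0351 with quantile normalization. That of Suz12 reversed to 0.0265 with TMM factors, with or without the block, and to 0.0212 and 0.0210 with edgeR without and with it. For Mir182mTg against Control, Eed reversed to -0.000342 and Dnmt3a to -0.00297 with DESeq2. Suz12 reversed to 0.00181 with library size alone, 0.00963 with upper quartile scaling and 0.00144 with limma, and Dnmt1 to 0.00202 with no filter, 0.00866 with library size alone, 0.0167 with upper quartile scaling and 0.00899 with limma.

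Without 1 library at a time, differences near 0 crossed it. In basal Mir182ΔM/ΔM against WT cells these were Kdm6b (-0.0279 to 0.32), Tet2 (-0.15 to 0.0247) and Hdac7 (-0.0882 to 0.0322), and after RANKL Eed (-0.00716 to 0.0735) and Tet2 (-0.00306 to 0.0731). For Mir182mTg against Control they were Ezh2 (-0.16 to 0.0130), Eed (-0.0740 to 0.0911), Suz12 (-0.0492 to 0.0303), Kdm6b (-0.29 to 0.18), Dnmt1 (-0.0489 to 0.0507) and Dnmt3a (-0.0719 to 0.0710). The regulators with a match to miR-182 numbered 0 with the 7 letters for bases 2 to 8 and 0 with 8 letters. With the 6 letters for bases 2 to 7 they numbered 2, and also 2 when an A, which pairs with base 1, followed. Control as baseline with the block, edgeR with the block and the 6 letters followed by A were chosen after seeing the data. The search of promoters was not among the comparisons set out beforehand. The causes of these changes were not tested. With 2 replicates, differences within the intervals given cannot be resolved.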
